A study of Mus musculus with 9 samples.

Results

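The genes that duplicate the genome in S phase were examined in mouse blood stem and progenitor cells with and without the transcription factor Runx1, and in cells carrying a RUNX1 fragment. The list held 37 genes: the factors that license and fire origins, the enzymes of the replication fork, a chromatin assembly factor, the enzymes of nucleotide supply, and the cyclins and E2F factors of the G1 to S transition. Members were listed by gene name, and the list was chosen with earlier results of these data known. Of the 37 genes, 35 had a probe set assigned to a single gene symbol and were measured, among 12393 genes in all. Gins2 and Chaf1a were not measured. Each gene was read from the brightest of its probe sets as log2(signal + 16), and every level below is on that scale after quantile normalization.

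The series held 9 expression arrays in 3 groups of 3 biological replicates, all from bone marrow of mice on a C57BL/6 background. The cells were KSL cells, a sorted fraction positive for c-Kit and Sca-1 and negative for lineage markers and IL7Ra, which contains the blood stem cells and early multipotent progenitors. The control mice were Runx1floxed/floxedMxCre-/-, with floxed Runx1 and no Cre, and were sampled 3 months after poly IC. Runx1KO mice were Runx1floxed/floxedMxCre+/-, with the same floxed alleles and the interferon-inducible Mx-Cre, also 3 months after poly IC. Mx-Cre is active in blood cells and in other tissues, so deletion is not limited to the sorted cells. The RUNX1(41-214) cells had received a retroviral vector that expresses this RUNX1 fragment and were taken 4 months after transduction and transplantation. Poly IC is not named for that group, and no transplanted group with an empty vector was among the samples, so the fragment cannot be told apart from the virus, the transplantation or the time. The labels do not say whether the replicates came from single or pooled mice, so the p-values measure the spread between these arrays.

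Before S phase, the origin recognition complex, Cdc6 and Cdt1 load the MCM helicase onto DNA, and Cdc45 and the GINS complex then turn it into the active helicase of the fork. E2F factors switch on many of these genes together as cells leave G1, so their mRNA is commonly read as a measure of how much of a population is cycling. Blood stem cells are mostly quiescent while the progenitors in the same gate divide often, and in bulk RNA fewer cycling cells and less RNA per cycling cell cannot be told apart.

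The labelled cell type was checked against marker genes. Of 10 KSL markers 8 were measured. Cd34, Meis1, Hlf, Kit, Procr, Flt3 and Slamf1 averaged 11.87, 11.71, 11.56, 11.50, 10.99, 10.51 and 9.30, while Mecom averaged 5.95, below the median of all genes. Against control, RUNX1(41-214) differed for Procr by -0.87 ± 0.16 (adjusted p = 0.0099) and for Kit by 0.57 ± 0.14 (adjusted p = 0.042), so the markers themselves were not level across groups. Markers of other lineages were mixed. Cd3e of T cells, Pax5 of B cells and the globin Hba-a1 averaged 4.59, 4.46 and 4.41, close to the scale's lower end of 4. Other markers on the same lists were bright: Ighm averaged 11.43 and Cd79b 9.19 on the B cell list, Nkg7 8.89 on the T and NK cell list, and Car2 12.49 and Car1 9.07 on the erythroid list. Mpo and Prtn3 of the granulocyte list, which early myeloid progenitors also express, averaged 12.39 and 11.65. The lists therefore do not show the sorted fraction to be free of other cells. Runx1 itself ranged from 9.88 to 10.73 in control, from 11.20 to 11.73 in Runx1KO and from 10.82 to 11.06 in RUNX1(41-214). The deleted exon and the place of the Runx1 probes along the transcript were not given in the sources used here, so this signal does not test the deletion. The deposited array medians lay between 125 and 147. Gapdh control probe sets at the 3′ end were brighter than those at the 5′ end, as happens when RNA or labelled product is shortened, by a log2 ratio of 1.85 on control 2, 2.13 on Runx1KO 3 and 0.98 to 1.29 on the other 7 arrays.

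The replication genes gave strong signals in all groups. Their median level was 10.37, against 7.95 over all genes, and 30 of the 35 lay above the latter value. Signal also depends on the probe set, so these levels do not order the genes by their mRNA. Licensing and origin firing genes ranged from 6.98 for Orc1, the large subunit of the origin recognition complex, to 12.23 for the helicase subunit Mcm7. Fork genes ranged from 7.87 for Rfc3, a subunit of the clamp loader, to 12.43 for the sliding clamp Pcna, the highest of the list. Nucleotide supply genes ranged from 6.04 for the thymidylate synthase Tyms, the lowest of the list, to 11.05 for Rrm1, the large subunit of ribonucleotide reductase. The G1 to S regulators were dimmer, from 6.44 for the transcription factor E2f3 to 8.45 for cyclin E2, Ccne2. Residual spread was like that of other genes, with a median SD of 0.25 for the list and 0.24 over all genes.

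**Figure D1:**
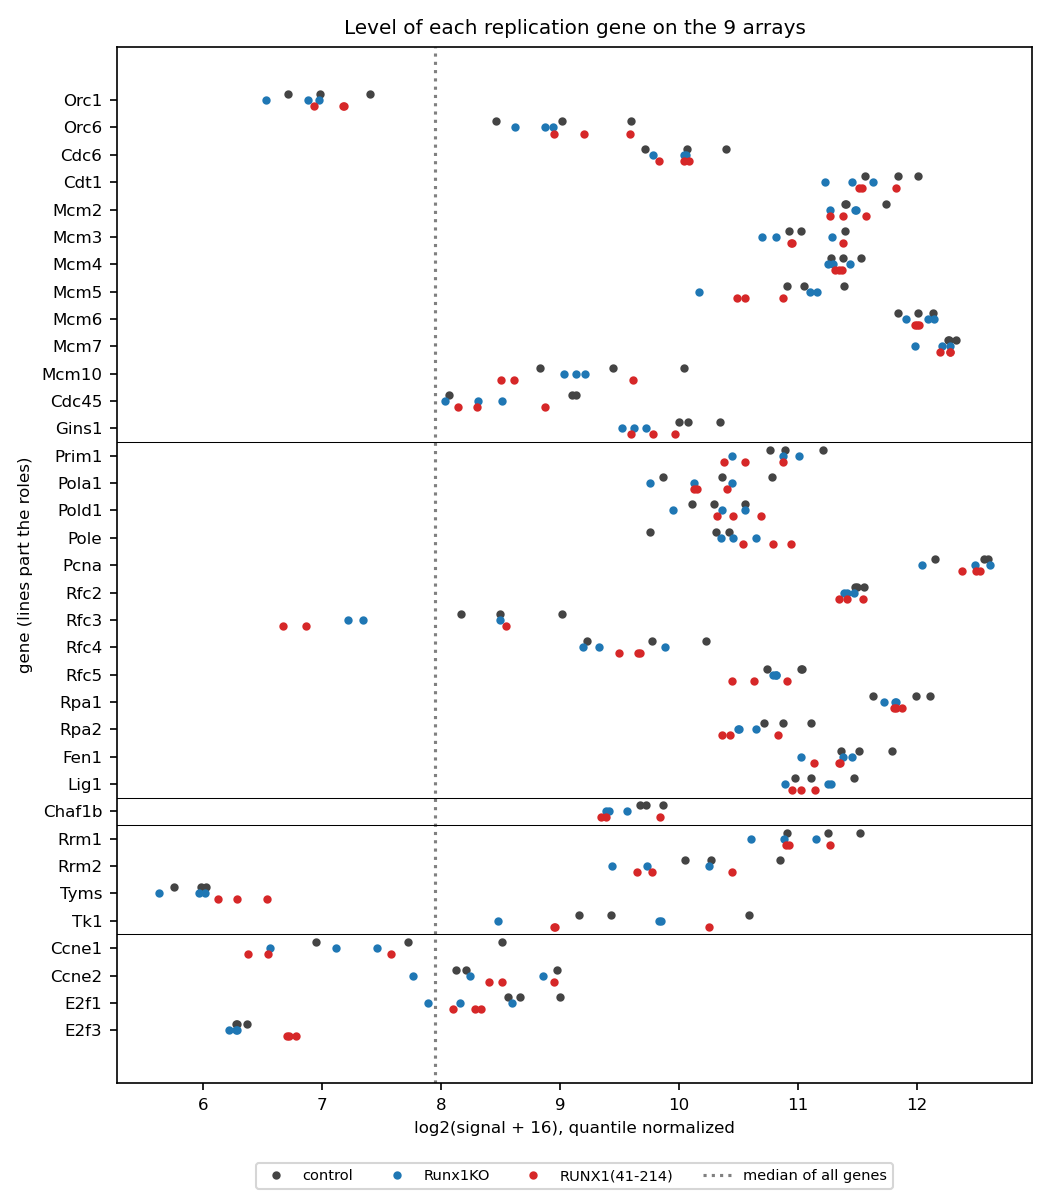
Levels of the 35 replication genes on the 9 arrays, as log2(signal + 16) after quantile normalization, with 1 point per array, coloured by group, and genes ordered by role. The 3 groups overlap for most genes, while E2f3 has its RUNX1(41-214) points apart from the other 6 arrays and Rfc3 spreads over more than 2 log2 units.

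No replication gene differed among the groups after adjustment. With limma and Benjamini-Hochberg adjustment over all genes, 0 of 35 passed an adjusted p of 0.05 in the test among the 3 groups, where 3.4% of all genes passed. The lowest adjusted p of the list in that test was 0.275, for Gins1, and 3 of the 35 had an unadjusted p under 0.05, against 13.3% of all genes. The difference from control leaned one way in both comparisons even so. Control had the highest of the 3 group means for 26 of the 35 genes, as for 33.1% of all genes, and Runx1KO the lowest for 22, as for 31.2% of all genes. Both comparisons share the control arrays, so they are not independent of each other.

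The minichromosome maintenance proteins Mcm2 to Mcm7, which form the ring of the replicative helicase, differed by between -0.48 and 0.16 over the 3 comparisons, and none passed the test. Mcm2 was at 11.41, 11.39 and 11.74 in control, 11.49, 11.27 and 11.48 in Runx1KO, and 11.27, 11.38 and 11.57 in RUNX1(41-214). Mcm3 was at 10.92, 11.39 and 11.03 in control, 11.28, 10.70 and 10.82 in Runx1KO, and 10.94, 10.95 and 11.38 in RUNX1(41-214). For both genes every pair of groups overlapped. Mcm4 was at 11.53, 11.38 and 11.28 in control, 11.44, 11.30 and 11.25 in Runx1KO, and 11.34, 11.37 and 11.31 in RUNX1(41-214). Mcm6 was at 12.13, 12.01 and 11.84 in control, 12.14, 11.90 and 12.10 in Runx1KO, and 12.01, 12.00 and 11.99 in RUNX1(41-214). Mcm7 was at 12.26, 12.33 and 12.26 in control, 12.21, 12.28 and 11.98 in Runx1KO, and 12.19, 12.28 and 12.27 in RUNX1(41-214). Mcm6 and Mcm7 were the steadiest of the ring, each with a standard error of a group difference of at most 0.10. Mcm5 was the one subunit whose RUNX1(41-214) arrays lay apart from control. It was at 11.39, 10.91 and 11.05 in control, 11.16, 11.10 and 10.17 in Runx1KO, and 10.49, 10.56 and 10.87 in RUNX1(41-214). All 3 fragment arrays of Mcm5 were below all 3 controls, by -0.48 ± 0.24 (log2 difference ± SE, n = 3 arrays a group), with an adjusted p of 0.394.

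Pcna, the clamp that holds the polymerases on DNA, was level across the groups. It was at 12.56, 12.60 and 12.15 in control, 12.62, 12.48 and 12.04 in Runx1KO, and 12.38, 12.49 and 12.53 in RUNX1(41-214). The lowest control array and the lowest Runx1KO array were both replicate 3, and the groups overlapped. The Runx1KO minus control difference was -0.06 ± 0.15, with a 95% interval from -0.39 to 0.27, and the RUNX1(41-214) minus control difference was 0.03 ± 0.15, from -0.30 to 0.36. These intervals bound any difference in Pcna to less than 1 log2 unit.

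The comparison of Runx1KO with control asked what differs after deletion of Runx1. Control mice carried no Cre, so loss of Runx1 cannot be told apart from the presence of Mx-Cre. Replication genes were lower in Runx1KO by small amounts. The log2 difference was below 0 for 33 of 35, as for 50.8% of all genes, with a median of -0.21 against -0.004 over all genes. By role, 12 of 13 licensing and firing genes, 12 of 13 fork genes, Chaf1b of the chromatin assembly factor, 4 of 4 nucleotide supply genes and 4 of 4 G1 to S regulators lay below 0. Mcm6, at 0.05, and Pole, at 0.32, were the exceptions. A second bright probe set of Mcm6, with a mean of 11.07, gave -0.22 ± 0.17. None of the 35 passed the adjusted threshold in limma, which 0.347% of all genes did, and the lowest adjusted p was 0.360. An unadjusted p under 0.05 was reached by 4, all lower, against 7.22% of all genes in either direction and 3.38% with Runx1KO lower. In 4 genes the arrays of the groups did not overlap, with Runx1KO lower in each, against 10.5% of all genes in either direction and 5.2% with Runx1KO lower.

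Gins1, a subunit of the GINS complex of the active helicase, had the lowest adjusted p of the list. It was at 10.08, 10.00 and 10.34 in control, and 9.72, 9.63 and 9.53 in Runx1KO. Each Runx1KO array was below each control array, with a difference of -0.52 ± 0.17 and an adjusted p of 0.360. Cdt1, which loads the MCM ring, differed by -0.37 ± 0.15 (adjusted p = 0.574). Rpa2, a subunit of the complex that coats single-stranded DNA, differed by -0.35 ± 0.16 (adjusted p = 0.689). E2f1, an activating E2F factor, differed by -0.53 ± 0.23 (adjusted p = 0.648). These 4 had 95% intervals that left out 0 before adjustment. The genes with complete separation were Gins1, Rpa2, the clamp loader subunit Rfc2 at -0.09 ± 0.10, and Chaf1b at -0.30 ± 0.18.

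The differences of greatest size had wide spreads. Rfc3 was at 8.50, 9.01 and 8.17 in control, and 8.50, 7.22 and 7.35 in Runx1KO. Runx1KO 1 lay within the control range and the other 2 arrays about a log2 unit below it, giving -0.87 ± 0.48 (adjusted p = 0.794). The second probe set of Rfc3, with a mean of 7.36, gave a smaller difference of -0.31 ± 0.29. Ccne1, the cyclin E1 partner of the kinase Cdk2 at S phase entry, was at 6.95, 8.52 and 7.72 in control, and 7.46, 7.12 and 6.56 in Runx1KO. Control itself spanned more than a log2 unit for Ccne1, and the difference was -0.68 ± 0.42 (adjusted p = 0.828). Rrm2, the small subunit of ribonucleotide reductase that is made anew in each S phase, was at 10.05, 10.27 and 10.85 in control, and 10.25, 9.44 and 9.73 in Runx1KO. The groups of Rrm2 overlapped through control 1 and Runx1KO 1, and the difference was -0.58 ± 0.28 (adjusted p = 0.710). The other 2 probe sets of Rrm2, both dimmer, gave smaller differences of -0.11 ± 0.29 and -0.26 ± 0.36. A fold of more than 1.5 was reached by 2 of the 35 genes and a fold of more than 2 by 0. The 95% interval lay within a fold of 2 either way for 28 of 35, and the 7 others were Mcm10, Cdc45, Rfc3, Rrm2, Tk1, Ccne1 and E2f1.

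The lean toward lower values in Runx1KO moved with single arrays. Without Runx1KO 3 the median was -0.13, with 28 of 35 below 0. When control 2 and Runx1KO 3, the arrays of high Gapdh ratio, were both left out, the median was -0.09 with 25 of 35 below 0, and 7 of 13 fork genes lay below 0. The part of RNA quality in the difference was not tested beyond these values.

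**Figure D2:**
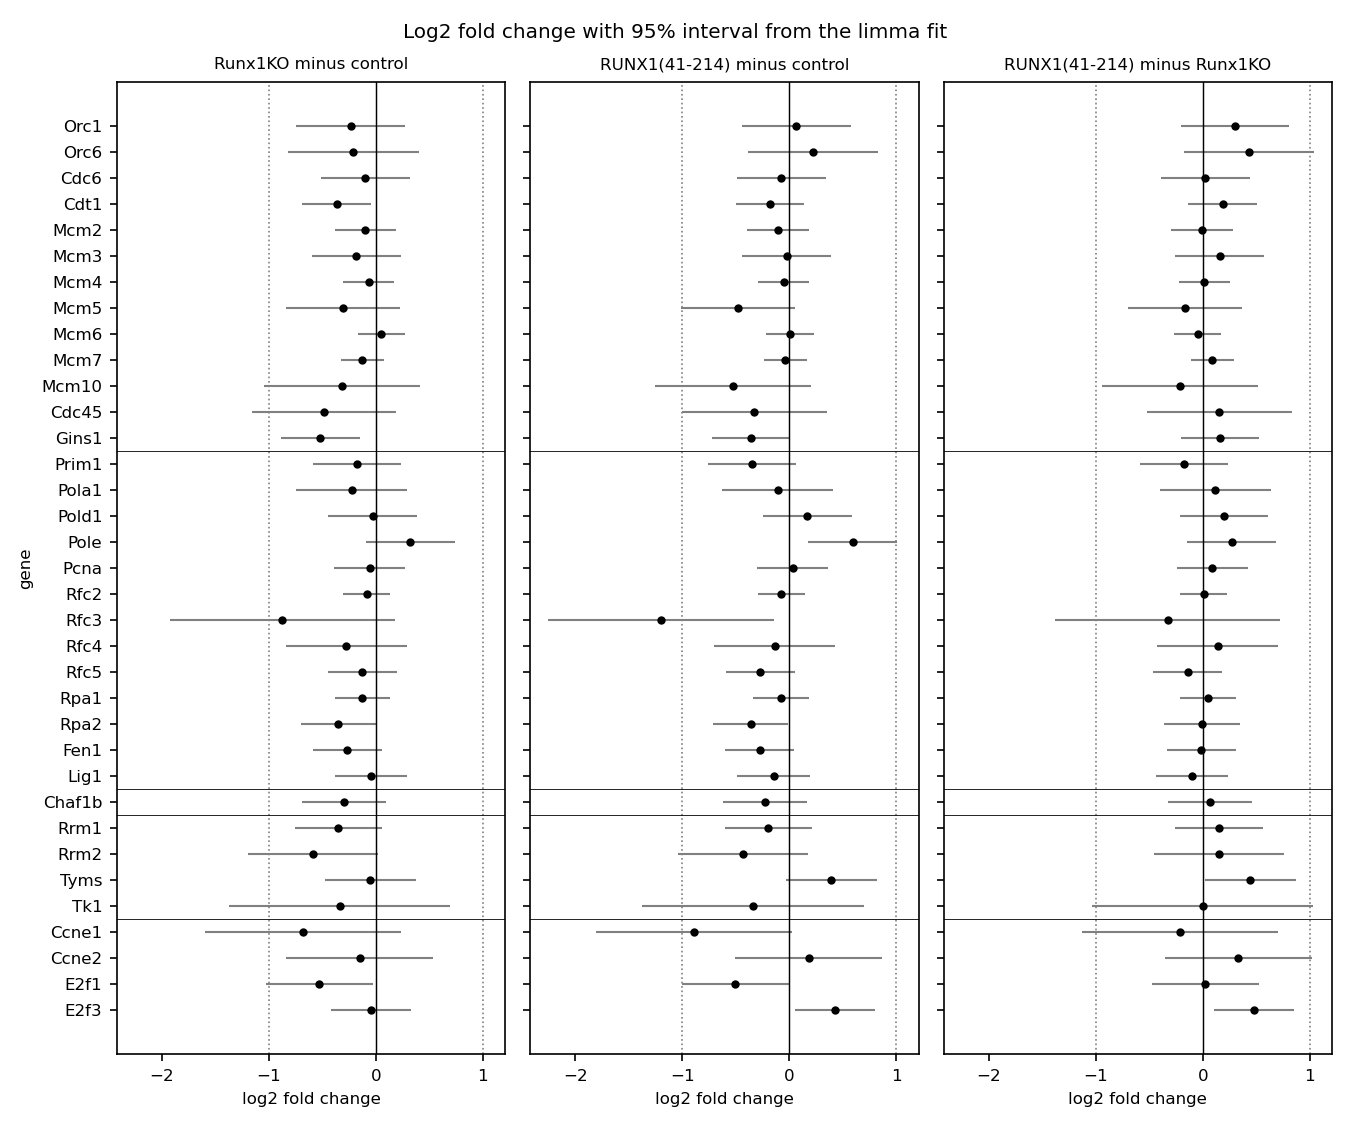
Log2 differences of the 35 replication genes for the 3 comparisons, with points at the estimate and bars for the 95% interval of limma. For Runx1KO minus control 33 points lie to the left of 0, for RUNX1(41-214) minus control 26, and for RUNX1(41-214) minus Runx1KO 12. Most intervals cross 0.

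The RUNX1(41-214) cells were compared with control to see what the fragment does. Their replication genes were less uniform than those of Runx1KO: 26 of 35 lay below control, as did 47.4% of all genes, and the differences ran from -1.20 to 0.59 with a median of -0.14. Licensing and fork genes were below control in 10 of 13 each, nucleotide supply genes in 3 of 4 and G1 to S regulators in 2 of 4. The limma test called 0 of the 35, while 4.28% of all genes passed, and the lowest adjusted p was 0.130. An unadjusted p under 0.05 was reached by 5, of which 2 were higher and 3 lower, against 15.5% of all genes, 7.32% higher and 8.16% lower. The arrays did not overlap for 7 genes, 3 with the fragment higher and 4 with it lower, against 20.3% of all genes, 10% higher and 10.2% lower. With array medians aligned in place of quantile normalization, the median over all genes moved to 0.12, and the list's median was then about 0 (-0.00) with 18 of 35 below 0. The list's median against control therefore moved with the scaling, from -0.14 to about 0, along with the median over all genes. It was not above 0 under any alternative. Single arrays moved the list's median too: it was -0.27 without control 1, -0.06 without control 2 and -0.08 without RUNX1(41-214) 1.

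Pole, the catalytic subunit of the leading strand polymerase, was the highest of the list relative to control. It was at 9.76, 10.42 and 10.31 in control, 10.35, 10.65 and 10.45 in Runx1KO, and 10.79, 10.54 and 10.94 in RUNX1(41-214). Every fragment array was above every control array, and the Runx1KO arrays lay between and overlapped both. The difference from control was 0.59 ± 0.19, with an adjusted p of 0.130 and an interval from 0.18 to 1.01. It was 0.73 ± 0.20, with an adjusted p of 0.0499, when array medians were aligned. The median over all genes also moved up under that setting, as given above. E2f3, an activating E2F factor, was dim but tight. It was at 6.28, 6.37 and 6.28 in control, 6.28, 6.22 and 6.29 in Runx1KO, and 6.71, 6.79 and 6.72 in RUNX1(41-214). The fragment arrays stood above the other 6, by 0.43 ± 0.17 over control (adjusted p = 0.240) and by 0.48 ± 0.17 over Runx1KO (adjusted p = 0.301). Limma gives a dim gene with a small spread a standard error drawn toward that of other genes, so this one is larger than the array values alone would give. Tyms, which makes thymidylate for DNA synthesis, had a similar order. It was at 5.76, 5.99 and 6.03 in control, 5.63, 5.97 and 6.02 in Runx1KO, and 6.13, 6.29 and 6.54 in RUNX1(41-214). All fragment arrays were above the other 6, by 0.39 ± 0.19 over control (adjusted p = 0.372) and 0.45 ± 0.19 over Runx1KO (adjusted p = 0.436). Its other 2 probe sets, dimmer still, gave 0.05 and 0.14 against control, and -0.19 and 0.13 against Runx1KO.

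Among the genes below control, Rfc3 again had the greatest difference. Its RUNX1(41-214) arrays were at 6.86, 6.68 and 8.55, so that 2 lay below all controls and the third within their range. The difference was -1.20 ± 0.48 with an adjusted p of 0.242, and this was the only fold of more than 2 in the list. Without RUNX1(41-214) 3 it was -1.79 ± 0.39, with an adjusted p of 0.0358. Its second probe set, also dim, gave -0.39 ± 0.29. Ccne1 in these cells was at 6.55, 6.38 and 7.58, a difference of -0.89 ± 0.42 (adjusted p = 0.340), and Rrm2 at 9.65, 9.78 and 10.44, a difference of -0.43 ± 0.28 (adjusted p = 0.524). For all 3 genes RUNX1(41-214) 3 was the highest array of its group. E2f1 was below all controls, at 8.10, 8.29 and 8.34 against 9.0, 8.67 and 8.57, with a difference of -0.50 ± 0.23 (adjusted p = 0.317). Rpa2 differed by -0.36 ± 0.16 (adjusted p = 0.308). Gins1 and the flap endonuclease Fen1, which trims Okazaki fragments, lay below all controls with differences of -0.36 ± 0.17 and -0.28 ± 0.15. The 95% interval lay within a fold of 2 for 26 of the 35 genes.

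The fragment cells and the knockout cells were then set against each other. RUNX1(41-214) was above Runx1KO for 23 of 35 genes, as for 53% of all genes, with a median of 0.07 and a range from -0.33 to 0.48. Limma called 0 of 35, against 1.36% of all genes, and the lowest adjusted p was 0.301. An unadjusted p under 0.05 was reached by 2, Tyms and E2f3, both higher in RUNX1(41-214), against 10.6% of all genes in either direction and 4.92% higher. The arrays did not overlap for 3 genes, all higher in RUNX1(41-214), namely Tyms, E2f3 and Orc6, against 18.8% of all genes in either direction and 9.67% higher. Orc6, a subunit of the origin recognition complex, was at 8.46, 9.59 and 9.02 in control, 8.94, 8.62 and 8.88 in Runx1KO, and 8.95, 9.20 and 9.59 in RUNX1(41-214). Its control arrays spanned both other groups, and the difference from Runx1KO was 0.43 ± 0.28 (adjusted p = 0.660). For 30 of 35 genes the 95% interval lay within a fold of 2, and no gene differed by a fold of more than 1.5. The median was -0.0066 without RUNX1(41-214) 3 and -0.035 with array weights, so the list had no stable direction between these groups.

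Arrays of a group differed from each other at least as much as the groups did. The mean level of the 35 genes was 9.93, 10.26 and 10.20 on the control arrays, 10.06, 9.87 and 9.74 on the Runx1KO arrays, and 9.81, 9.88 and 10.21 on the RUNX1(41-214) arrays. The groups overlapped, with RUNX1(41-214) 3 at the level of the 2 higher controls and control 1 below Runx1KO 1. Within the fragment group, replicate 3 was the highest array for 29 of 35 genes, as for 34.3% of all genes, and replicate 1 the lowest for 26, as for 27.4%. Within control, replicate 1 was the lowest for 22, as for 35.5% of all genes. Within Runx1KO, replicate 1 was the highest for 24, as for 24.5% of all genes. Tk1, the salvage thymidine kinase, showed the same pattern, at 9.16, 10.58 and 9.43 in control, 9.85, 9.83 and 8.48 in Runx1KO, and 8.95, 8.96 and 10.25 in RUNX1(41-214). Its difference from control was -0.34 ± 0.47 in both other groups.

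**Figure D3:**
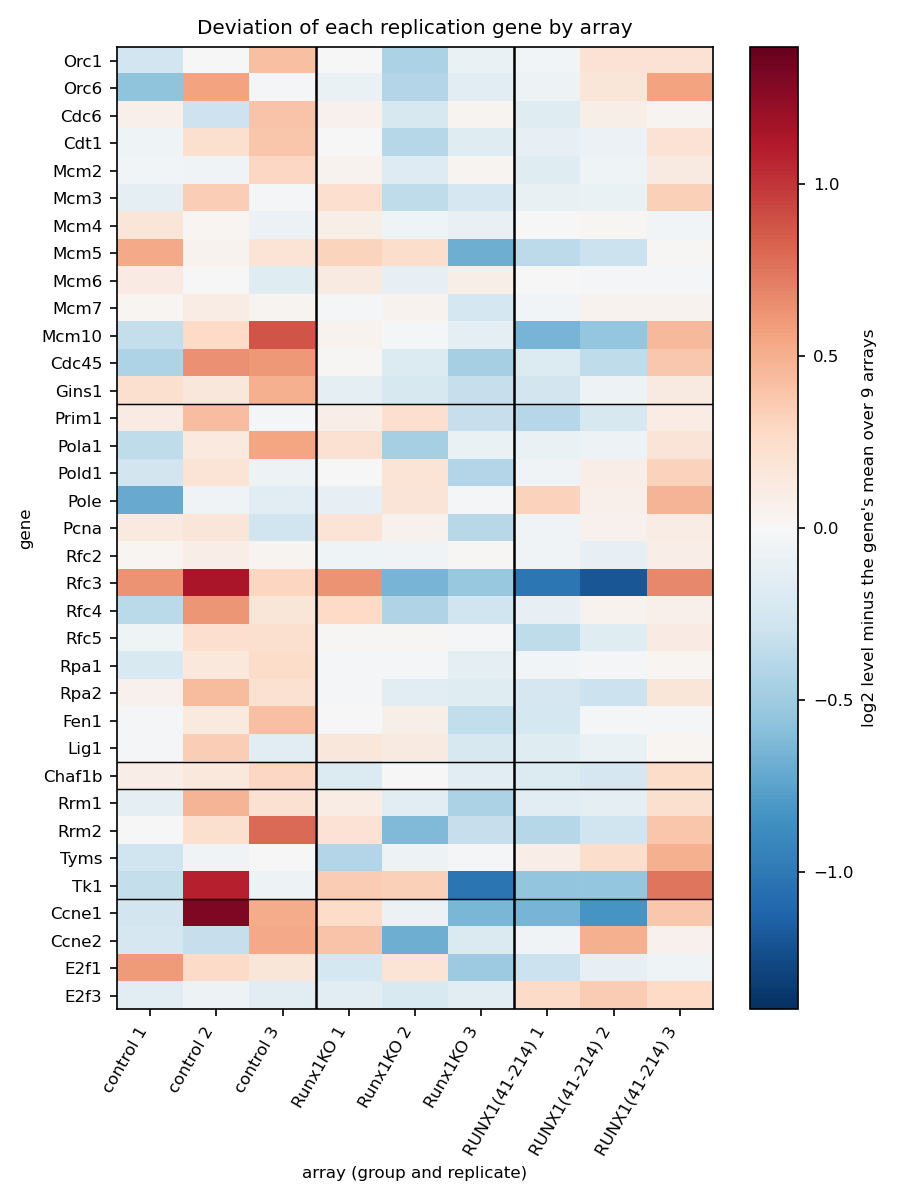
Deviation of each replication gene on each array from its mean over the 9 arrays, in log2 units, with genes in rows by role and arrays in columns by group. The number of the 35 genes above their mean is 14, 28 and 23 on the control arrays, 23, 11 and 4 on the Runx1KO arrays, and 4, 12 and 31 on the RUNX1(41-214) arrays, so columns within a group differ.

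Other genes of the cell cycle followed the arrays in the same way. Of 61 further replication genes 49 were measured, and limma called 0 of them in each of the 3 comparisons, with 4, 6 and 2 at an unadjusted p under 0.05, against 7.22%, 15.5% and 10.6% of all genes. In Runx1KO 39 of the 49 lay below control with a median of -0.12, as did 50.8% of all genes. In RUNX1(41-214) 34 lay below control with a median of -0.16, as did 47.4% of all genes. Between these groups 26 were higher in RUNX1(41-214), as were 53% of all genes, with a median of 0.00. Genes of mitosis, which mark cells that have finished S phase, did not share the lean toward lower values in Runx1KO. Of 36 listed 33 were measured, and 22 of these lay above control in Runx1KO with a median of 0.08, where 49.2% of all genes lay above it. Limma called 0 of them in each comparison, and 0 had an unadjusted p under 0.05. Their mean level ran from 8.78 on control 1 to 9.81 on control 2, and from 8.96 on RUNX1(41-214) 2 to 9.83 on RUNX1(41-214) 3. Control 1 was the lowest control array for 32 of 33 mitosis genes and RUNX1(41-214) 3 the highest of its group for 32 of 33. Without control 2 and Runx1KO 3, 32 of 33 mitosis genes lay above control in Runx1KO, with a median of 0.42, while 25 of 35 replication genes lay below it. Without control 1, only 8 of 33 mitosis genes lay above control, with a median of -0.20. The difference between the lists was not tested.

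**Figure D4:**
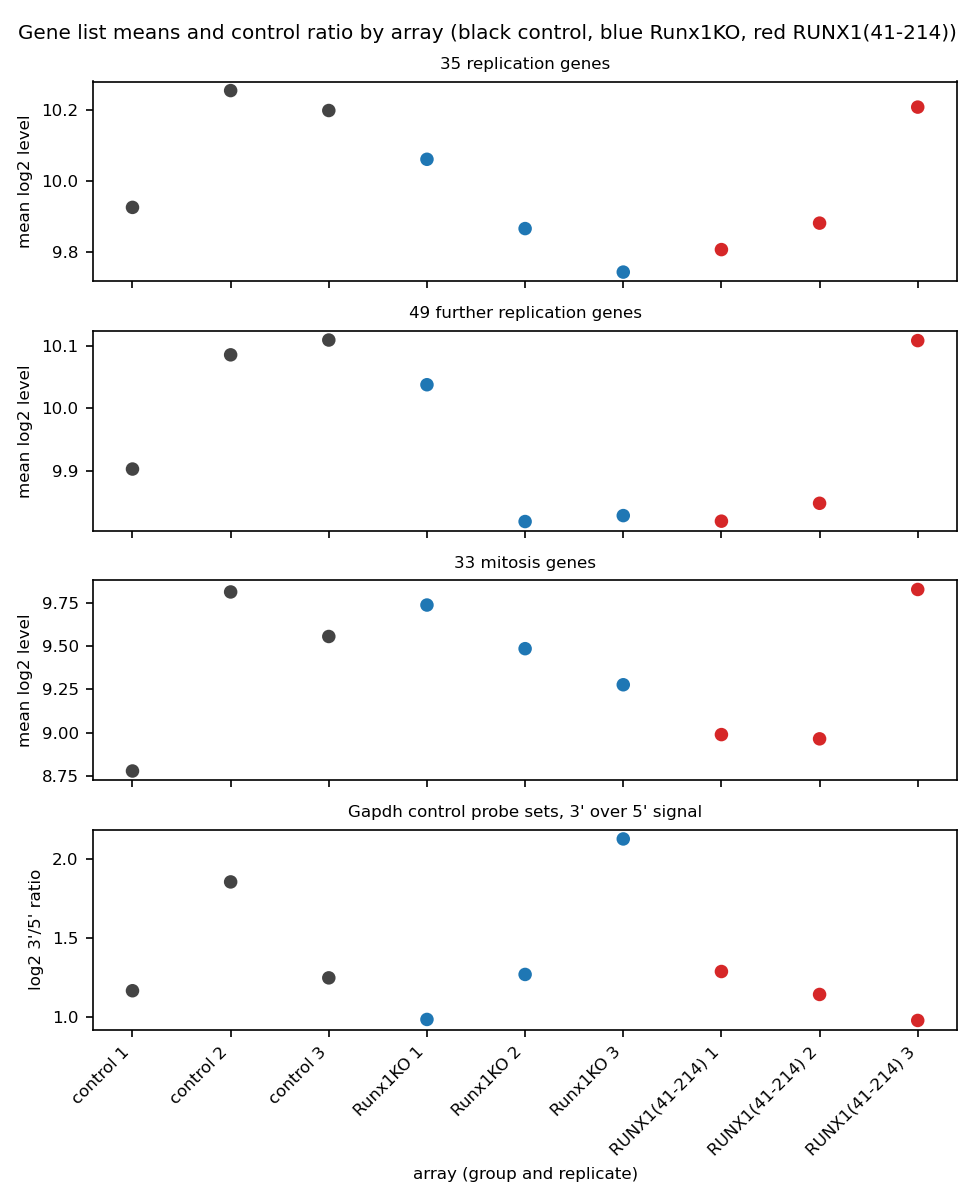
Mean log2 level of the 35 replication genes, the 49 further replication genes and the 33 mitosis genes on each array, and the log2 ratio of 3′ to 5′ Gapdh control signal, with 1 point per array coloured by group. The 3 lists are all high on RUNX1(41-214) 3 and control 2, and the Gapdh ratio stands apart on control 2 and Runx1KO 3.

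Markers of other blood cells also moved between arrays. The mean of 9 of 9 granulocyte markers was 9.18 on control 1 and 9.33 on RUNX1(41-214) 1, and between 7.03 and 8.23 on the other 7. Those 2 arrays had the lowest replication mean of their groups. Runx1KO went the other way: Runx1KO 1 had both the highest granulocyte mean of its group, 8.23, and the highest replication mean, 10.06. The mean of 7 of 9 erythroid markers ran from 7.09 to 8.32 in control, from 7.0 to 7.95 in Runx1KO and from 7.64 to 8.61 in RUNX1(41-214), and its highest arrays were control 2 and RUNX1(41-214) 3, both high for replication genes. The mean of 8 of 8 megakaryocyte and platelet markers was higher in both other groups, from 8.11 to 8.52 in control, 9.09 to 9.36 in Runx1KO and 9.38 to 10.03 in RUNX1(41-214). Not all of the 8 rose: 5 lay above control and 3 below in Runx1KO, and 7 above and 1 below in RUNX1(41-214). Vwf was below control in both, by -0.12 ± 0.36 and -0.72 ± 0.36. B cell markers, 7 of 8 measured, ran from 7.25 to 7.68 in control, 6.95 to 8.20 in Runx1KO and 6.55 to 6.77 in RUNX1(41-214). T and NK cell markers, 7 of 8 measured, ran from 6.20 to 6.54, 5.72 to 6.06 and 5.5 to 5.82 in the same order. Monocyte and macrophage markers, 6 of 7 measured, ran from 8.29 to 9.48, 8.67 to 9.34 and 8.02 to 8.72 in that order. The part of these markers in the replication gene values was not tested.

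Genes with more than 1 probe set gave a check within the arrays. The 35 genes had 61 probe sets, and 18 genes had several. All of a gene's probe sets had the same sign for 15 of 18 genes in Runx1KO minus control, 14 in RUNX1(41-214) minus control and 10 in RUNX1(41-214) minus Runx1KO. Mcm3 stood apart. Its 4 brighter probe sets differed from control by between -0.03 and 0.05 in RUNX1(41-214), whereas the dimmest of the 5, with a mean of 6.39, differed by 1.14 ± 0.25 (limma over all probe sets, adjusted p = 0.033) and from Runx1KO by 1.54 ± 0.25 (adjusted p = 0.015). What that probe set detects was not tested. Mcm4's second probe set, at a mean of 10.55, gave -0.44 ± 0.19 for Runx1KO minus control, where the brightest gave -0.07 ± 0.11.

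E2F factors bind short GC-rich sites near the starts of many replication genes, and Runx factors bind DNA through the Runt domain. Promoters from RefSeq on GRCm38.p6, 300 bases each from 250 before to 50 after the start, were found for 30 of the 35 genes, 35 promoters in all. Rfc2, Pole, Ccne2, Gins1 and Mcm4 were not in the table. An E2F core was searched with 4 runs of letters: TTCCCGC was the first, TTGGCGC the second, TTCGCGC the third and TTGCCGC the fourth. A Runx site was searched as TGTGGT and the box of the factor NF-Y as CCAAT, all on both strands. The E2F letters can overlap one another when read from opposite strands. They stood in 21 of the 35 promoters, of 19 genes, or 60%, against 14.5% of 12566 promoters of measured genes and 9.57% of all 32851 promoters. The Runx letters stood in 5 of 35, or 14.3%, against 13.2% and 16.8%. CCAAT stood in 19 of 35, or 54.3%, against 37.1% and 37.4%. The GC content was 59.8%, close to the 59% of measured genes. The 5 promoters with Runx letters were those of Mcm3, Mcm10, Rrm1, Orc6 and Tk1, whose differences between Runx1KO and control were -0.18, -0.31, -0.35, -0.21 and -0.34, beside the list's median of -0.21.

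Promoters of 4 members show these letters, each printed 5′ to 3′ on the gene's strand, with E2F and Runx letters of either strand in capitals. Mcm6 (chr1:128359656-128359955, minus strand) is shown for its 5 E2F matches, the most of the list's promoters, beside the level signal of its brightest probe set. Some of these matches overlap on opposite strands, while the 4 matches of Pola1 do not overlap. Rfc3 (chr5:151651159-151651458, minus strand, 2 E2F matches) is shown as the gene of greatest difference. Rrm1 (chr7:102441445-102441744, plus strand) holds 1 E2F match and then 1 Runx match. E2f3 (chr13:29986014-29986313, minus strand, 2 E2F matches) is shown because its arrays were higher in RUNX1(41-214).
Mcm6: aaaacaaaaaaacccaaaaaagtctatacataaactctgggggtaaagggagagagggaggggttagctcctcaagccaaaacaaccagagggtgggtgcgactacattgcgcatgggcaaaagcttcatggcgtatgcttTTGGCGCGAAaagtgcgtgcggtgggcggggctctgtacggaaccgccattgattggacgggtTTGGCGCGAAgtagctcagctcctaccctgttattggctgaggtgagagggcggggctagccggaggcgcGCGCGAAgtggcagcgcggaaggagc
Rfc3: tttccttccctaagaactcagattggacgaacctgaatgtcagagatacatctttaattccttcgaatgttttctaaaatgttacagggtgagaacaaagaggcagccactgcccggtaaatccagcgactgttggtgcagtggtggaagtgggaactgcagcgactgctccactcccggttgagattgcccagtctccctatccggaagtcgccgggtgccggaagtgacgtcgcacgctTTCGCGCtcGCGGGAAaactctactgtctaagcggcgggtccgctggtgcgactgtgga
Rrm1: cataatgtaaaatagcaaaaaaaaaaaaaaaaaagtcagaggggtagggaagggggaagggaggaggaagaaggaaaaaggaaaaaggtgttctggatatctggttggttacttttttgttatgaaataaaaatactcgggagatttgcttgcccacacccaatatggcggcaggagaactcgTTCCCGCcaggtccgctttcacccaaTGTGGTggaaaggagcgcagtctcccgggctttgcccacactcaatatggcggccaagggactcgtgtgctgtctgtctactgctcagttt
E2f3: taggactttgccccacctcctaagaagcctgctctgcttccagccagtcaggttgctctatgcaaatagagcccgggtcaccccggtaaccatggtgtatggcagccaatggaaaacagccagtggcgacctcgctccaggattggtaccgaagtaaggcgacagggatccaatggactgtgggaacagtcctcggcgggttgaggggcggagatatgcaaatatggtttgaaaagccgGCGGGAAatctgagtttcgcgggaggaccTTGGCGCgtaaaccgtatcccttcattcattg
Both Mcm6, with group differences from -0.05 to 0.05 by its brightest probe set, and Rfc3, with differences down to -1.20, hold E2F letters in this window. A match is a run of letters and was not tested as a bound site. A second E2f3 promoter in the table held no match of any kind.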

How the data were processed

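Each sample was 1 Affymetrix array of KSL cell RNA, with biotin-labelled cRNA made by two-cycle labelling per the labels' protocols. The deposited values are signal intensity per probe set, from 0.53 to 20214.96, on a linear scale; the summarisation and scaling algorithm is not given in the sources used here. From 22690 probe sets 64 controls were set aside. Of the rest, 20380 had 1 gene symbol in the platform table, 691 several and 1555 none, and 12393 genes were read through their brightest probe set. Array medians of log2(signal + 16) spanned 0.21, above a limit of 0.2, so arrays were quantile normalized. Groups were compared in R 4.3.3 with limma 3.58.1 (lmFit, eBayes with a variance trend, 6 residual and 5.60 prior degrees of freedom), fitted on all 9 arrays and genes, two-sided, with Benjamini-Hochberg adjustment over all genes and a threshold of 0.05. The scripts were tested on simulated data. The number of arrays limits the precision.

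Members and lists were chosen with earlier results of these data known, and no list has a test of its own. Values on every array are given for members past the threshold, for the 3 largest differences of each comparison, for Pcna and Mcm2 to Mcm7, and for the members of highest and lowest mean; those of Gins1, E2f1 and Tk1 were chosen after their values were seen. Alternatives were other normalizations and offsets, a filter on low signal, all probe sets of a gene averaged, array weights, fits on 6 arrays, a replicate block, and leaving out each array or both arrays of high Gapdh ratio.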

Additional observations from a re-analysis of the deposited data

How the results depend on the processing

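In Runx1KO minus control, RUNX1(41-214) minus Runx1KO and the test among 3 groups, 0 of 35 genes passed under each alternative, with lowest adjusted p between 0.285 and 0.733, 0.126 and 0.639, and 0.0918 and 0.445. In RUNX1(41-214) minus control the count was 1 with array medians aligned (Pole) and ranged from 0 to 1 when each array was left out (Rfc3, without RUNX1(41-214) 3); the lowest adjusted p lay between 0.0358 and 0.342. The median of RUNX1(41-214) minus Runx1KO was -0.035 with array weights and ranged from -0.0066 to 0.13 when each array was left out. The other medians ranged from -0.31 to -0.13 (Runx1KO minus control) and from -0.27 to -0.06 (RUNX1(41-214) minus control) when each array was left out. The causes were not tested. Of 661 gene values per comparison recomputed, 32, 33 and 63 changed sign, none of them called. Over all genes the calls, 43, 531 and 168, ran from 9 to 57, 305 to 766 and 76 to 371. Same-numbered arrays had correlations of deviations from -0.17 to 0.42. Between control and Runx1KO they were 0.03, 0.41 and 0.42 for replicates 1, 2 and 3, against -0.47 to 0.14 for unlike numbers. Deviations were taken from each group's mean, so high values for like numbers force low ones for unlike numbers, and the latter are no independent comparison. The labels name no pairing, and whether the numbers pair these samples was not tested. With the replicate number as a block 0 of 35 genes passed in each comparison. Each number occurs once in each group, so the block cannot change a difference, and the medians stayed at -0.21, -0.14 and 0.07. Dim genes such as Tyms and E2f3 lie where log2(signal + 16) shrinks differences.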

Other observations

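A list of quiescence and CDK inhibitor genes was measured as well. It also held Cdk6 and the D cyclins Ccnd1, Ccnd2 and Ccnd3, which are not inhibitors. All 15 of 15 genes on the list had a probe set. Limma called 0 of them in Runx1KO minus control (2 at an unadjusted p under 0.05), 2 in RUNX1(41-214) minus control (7 unadjusted) and 0 in RUNX1(41-214) minus Runx1KO (4 unadjusted). Over all genes the adjusted shares were 0.347%, 4.28% and 1.36%, and the unadjusted shares 7.22%, 15.5% and 10.6%. The called pair is named after its values were seen. Cdkn1b, which encodes the CDK inhibitor p27, was at 8.98, 9.20 and 9.11 in control, 9.34, 9.33 and 9.30 in Runx1KO, and 9.95, 9.98 and 10.05 in RUNX1(41-214). The 3 groups of Cdkn1b did not overlap, and it was higher in RUNX1(41-214) than in control by 0.90 ± 0.15 (adjusted p = 0.0063). Fhl1, a LIM domain gene linked to quiescent stem cells, was at 8.71, 9.48 and 9.40 in control, and 7.41, 7.22 and 7.81 in RUNX1(41-214). Each fragment array of Fhl1 was below each control array, with a difference of -1.72 ± 0.32 (adjusted p = 0.0096). On the same arrays 0 of 35 replication genes passed, and whether the lists differ was not tested.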
